A study of Drosophila melanogaster with 4 samples.

Results

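Fuzzy borders are TAD borders that were called in both cell lines but at positions that lie a short distance apart. A BG3 border was taken as fuzzy when the nearest Kc167 border was over 20 bp and at most 2 kb away, and each was paired with that Kc167 border. The rule gave 474 of the 1909 autosomal BG3 borders, so that 24.8% of all autosomal BG3 borders were fuzzy, and each of the 474 had a Kc167 partner of its own among the 2079 autosomal Kc167 borders. The members were thus chosen by the called positions in both lists, and the size of the shift is a description of them. The other BG3 borders were conserved (552, at the same base as a Kc167 border) or BG3-specific (883, with no Kc167 border within 2 kb), and 1053 Kc167 borders were Kc167-specific.

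The positions come from in situ Hi-C, in which crosslinked chromatin is cut with the restriction enzyme DpnII, neighbouring ends are ligated, and the joined fragments are sequenced. The BG3 line of Drosophila melanogaster is male and was derived from larval nervous tissue, and Kc167 is female, of embryonic origin and often described as resembling blood cells. Both are untreated cultured lines, with 2 replicates of BG3 and 2 of Kc167, and each stands for its tissue only as far as an established line can. The replicates were merged into 1 map per line before TADs were called, so no spread between replicates enters any value below, and the 95% intervals (Wilson for shares, Newcombe for differences of shares, order statistics for medians) cover counting error only. The lists hold no tissue markers against which the identity of the lines could be checked.

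Topologically associating domains (TADs) are stretches of chromosome whose DNA contacts itself more often than it contacts the neighbouring stretch, and a border is the place where contacts across it are depleted. In flies, borders commonly lie at the promoters of broadly expressed genes, where insulator proteins such as BEAF-32, which binds CGATA motifs, and the promoter factors M1BP and Dref are found. The deposited TAD separation score falls where fewer contacts cross the border. A border is called strong here if it was also found with a stricter demand on how far the score falls below that of its surroundings, so that strength is relative to the neighbourhood and a border with a high score can be strong. A border position is given as the last base of the TAD on its left, on the dm6 build, and a gene start is the annotated 5' end of a protein-coding gene.

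The sequences between the borders of a pair show what a small shift is made of. They are printed from the plus strand of the dm6 assembly (RefSeq) with 10 bases beyond the border at each end, and capitals mark GATC, the DpnII site, or an M1BP motif. The first is the smallest shift, in the coding sequence of the ribosomal protein gene RpL8, with the BG3 border at 2588428 and the Kc167 border at 2588495. It is followed by a small shift between genes, 522 bp from the start of yrt, an epithelial polarity gene, at its Kc167 border. The next ones are shifts of a single fragment, in introns of osp and of bru1, which encodes an RNA-binding protein. In bru1, the start of CG31759 lay 63 bp from the BG3 and 252 bp from the Kc167 border.
chr3L:2588419-2588505 (RpL8, shift 67 bp): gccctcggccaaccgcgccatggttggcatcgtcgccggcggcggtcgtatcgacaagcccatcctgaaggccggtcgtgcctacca
chr3R:13435497-13435667 (near yrt, shift 151 bp): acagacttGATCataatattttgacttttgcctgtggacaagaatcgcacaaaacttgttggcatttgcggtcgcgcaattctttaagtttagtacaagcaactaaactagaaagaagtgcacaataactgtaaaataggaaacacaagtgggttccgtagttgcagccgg
chr2L:14663220-14663413 (osp, shift 174 bp): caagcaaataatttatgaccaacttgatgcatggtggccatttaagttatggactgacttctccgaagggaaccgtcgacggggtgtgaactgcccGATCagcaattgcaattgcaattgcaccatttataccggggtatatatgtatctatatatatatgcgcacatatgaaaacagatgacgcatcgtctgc
chr2L:12207448-12207656 (bru1, shift 189 bp): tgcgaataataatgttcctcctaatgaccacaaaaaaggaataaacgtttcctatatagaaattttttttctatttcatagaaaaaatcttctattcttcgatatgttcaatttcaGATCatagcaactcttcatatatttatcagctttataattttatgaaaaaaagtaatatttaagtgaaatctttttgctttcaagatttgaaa
The RpL8 stretch holds no DpnII site, so both positions lie in 1 fragment of the reference. In the stretch near yrt, the site spans the Kc167 border itself. The osp and bru1 stretches each hold 1 site, with the borders at the midpoints of the fragments on either side of it.

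The shifts ran between 67 and 1996 bp with a median of 920 bp (95% interval 850 to 973, n = 474) and quartiles of 585 and 1336 bp. Most pairs, 262 of them, were at most 1 kb apart, and 212 lay between 1 and 2 kb. Past the limit the distances thinned out, with 108 BG3 borders at 2 to 3 kb from the nearest Kc167 border, 64 at 3 to 4 kb and 55 at 4 to 5 kb. The distribution of distances thus has no gap at 2 kb. The largest shifts inside the limit were 1966 bp near CG16995 on 2L and 1996 bp near CG3356 on 2R. The nearest ones outside it were 2008 bp at cindr, 58 bp from whose start the BG3 border lay, and 2030 bp at Vti1b, both on 3R. At the lower limit there was a gap, since 552 BG3 borders shared their base with a Kc167 border and 0 lay 1 to 20 bp from one. Both maps were binned at DpnII sites with a smallest spacing of 150 bp, which leaves little room for such distances. The smallest shift after that of RpL8 was 99 bp on 2R, where the score was listed as 0 in both maps and the nearest gene start lay 97642 bp away.

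Fuzzy borders were found on each autosomal arm, at 88 of 390 BG3 borders on 2L (22.6%, 95% interval 18.7 to 27.0), 119 of 425 on 2R (28.0%, 23.9 to 32.5), 123 of 523 on 3L (23.5%, 20.1 to 27.3), 140 of 547 on 3R (25.6%, 22.1 to 29.4) and 4 of 24 on chromosome 4 (16.7%, 6.68 to 35.9). The intervals of the arms overlap. The median shift was 792.5 bp on 2L (679 to 1009) and between 926 and 966 bp on the other arms.

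The shifts were split about evenly between the sides. The BG3 border lay at the higher coordinate in 240 pairs and at the lower coordinate in 234, a share of 50.6% for the higher side (46.1 to 55.1). The share was between 48.0% and 53.6% on the 4 large arms. The median size was 895 bp (829 to 1016) where the BG3 border was higher and 923 bp (842 to 1054) where it was lower.

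**Figure D1:**
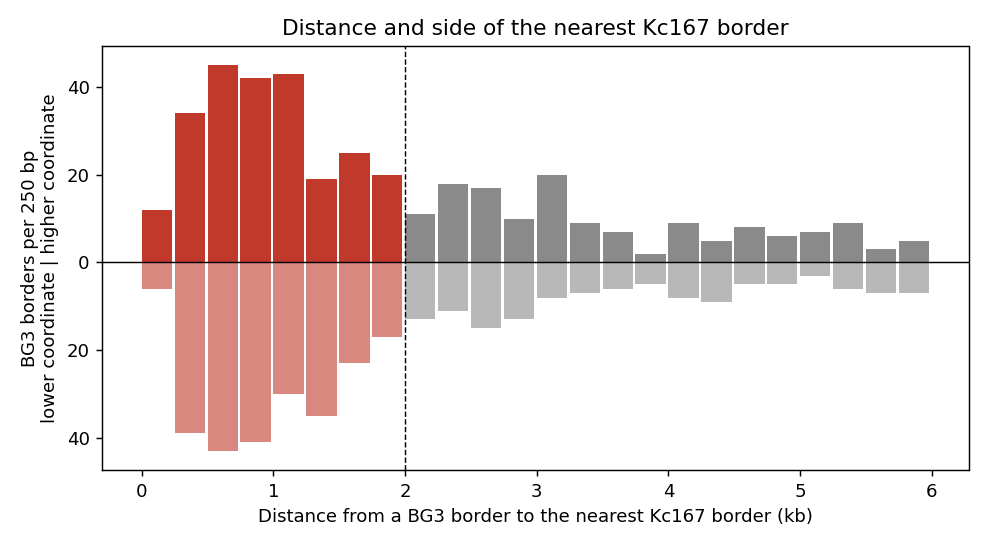
BG3 borders per 250 bp of distance to the nearest Kc167 border (x axis, kb), with borders at the higher coordinate drawn upwards and those at the lower coordinate downwards. Red bars are fuzzy borders, grey bars lie past the 2 kb limit (dashed line), and conserved borders at 0 are left out. Both sides hold similar numbers, 240 and 234 pairs within the limit.

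Counted in restriction fragments of at least 150 bp, most shifts were of 1 fragment or less. Borders were called on bins bounded by DpnII sites, and 437 of the 474 BG3 positions and 444 of the 474 Kc167 positions lay within 3 bp of the midpoint of a DpnII fragment of the reference. Counting fragments of at least 150 bp, the smallest spacing of sites used by the authors, 277 pairs were 1 fragment apart (58.4%, 54.0 to 62.8), 100 were 2 fragments apart and 76 were 3 to 5 apart. In 21 pairs both positions fell in the same fragment. Shorter fragments were skipped in this count of steps. With every DpnII site counted, 201 of the 474 pairs had a single site between their positions. The median shift was 740 bp (681 to 814) for pairs 1 fragment apart, 1184 bp (1073 to 1247) for those 2 apart and 1552 bp (1442 to 1649) for those 3 or more apart. The bins themselves are not in the lists, so these steps are counted on fragments cut in silico.

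A step of 1 fragment could still span most of the range, since it ran between 99 and 1960 bp. The pair of 1960 bp, on 2R, lay at Agps, an enzyme of ether lipid synthesis, whose start was 111 bp from the BG3 border and 1849 bp from the Kc167 border. The pair of 1955 bp near CG31816 on 2L was also 1 fragment apart and strong in both maps. By contrast, the 1954 bp between the BG3 border at 2601252 and the Kc167 border at 2599298 on 3L was 5 fragments wide. There, the Kc167 border lay 1 bp from the start of CG16985, and the BG3 border lay 921 bp from that of CG16986.

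The width of the fragment that held the BG3 border moved with the class of the border. It had a median of 568 bp (526 to 601) at fuzzy borders, against 1035 bp (942 to 1103) at conserved and 617 bp (565 to 668) at BG3-specific ones. Of the fuzzy and conserved borders together, 72.1% were fuzzy in fragments under 300 bp (119 of 165, 64.8 to 78.4), 63.3% at 300 to under 600 bp (138 of 218), 39.8% at 600 to under 1200 bp (135 of 339) and 27.0% in fragments of 1200 bp or more (82 of 304, 22.3 to 32.2). Among these, a BG3 border in a narrow fragment was more often fuzzy than conserved, and a border in a wide fragment less often. With BG3-specific borders counted too, 32.3% (27.8 to 37.3) were fuzzy under 300 bp and 16.7% (13.7 to 20.3) at 1200 bp or more. A step between wide fragments is longer and can pass the 2 kb limit, so the rule itself bears on these shares. The number of DpnII sites within 2 kb was alike, with a median of 11.5 (11 to 12) at fuzzy, 11 (11 to 12) at conserved and 11 (10 to 11) at BG3-specific borders. GC content had medians of 42.4%, 42.7% and 41.7% in the same order.

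**Figure D2:**
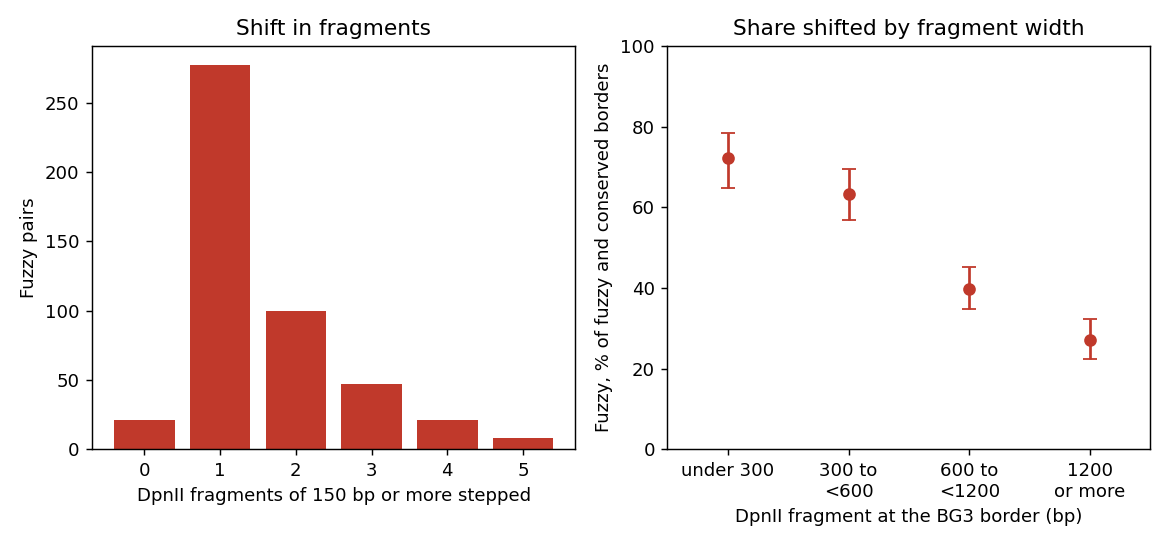
Left, number of fuzzy pairs (y axis) by the number of DpnII fragments of 150 bp or more between the BG3 and the Kc167 position (x axis), where 277 pairs are 1 fragment apart. Right, fuzzy borders as a percentage of fuzzy and conserved BG3 borders by width of the fragment at the BG3 border, with 95% Wilson intervals, which runs down between 72.1% and 27.0%.

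The TADs bounded by fuzzy borders were then compared. A fuzzy border stood at one end or both of 826 of the 1904 autosomal BG3 TADs, and 119 had 1 at each end. In 420 of them neither end was BG3-specific, and 325 of these corresponded to a single Kc167 TAD while 95 held further Kc167 borders inside. Over the 325, whose ends match within 2 kb by the rule, the widths differed by a median of 1014 bp (918 to 1077), which is 2.73% of the BG3 width (2.51 to 3.01). The BG3 TAD was wider in 180 and narrower in 145, with a median BG3 minus Kc167 width of 389 bp (-67 to 557).

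Strength of the border was examined next. Among fuzzy pairs, 208 BG3 borders were strong (43.9%, 39.5 to 48.4), beside 45.2% of all BG3 borders, and 265 Kc167 borders were strong (55.9%, 51.4 to 60.3), beside 52% of all Kc167 borders. In BG3, 51.3% of conserved (47.1 to 55.4) and 42.0% of specific borders (38.8 to 45.3) were strong, and in Kc167 65.8% of conserved (61.7 to 69.6) and 43.1% of specific borders (40.2 to 46.1). The share at fuzzy borders was thus close to that over all borders of the same map. In Kc167 it lay below that of conserved and above that of specific borders, and the intervals do not meet. In BG3 it also lay below that of conserved borders, with intervals that overlap, and that difference was not tested. Both borders of the pair were strong in 171 pairs (36.1%, 31.9 to 40.5), only the BG3 border in 37, only the Kc167 border in 94 and neither in 172. At conserved borders the corresponding counts were 251, 32, 112 and 157 of 552. Kc167 had more filtered reads than BG3 per the study's methods, and depth was not matched here. The median shift was 968 bp (918 to 1124) where both were strong and 823 bp (724 to 910) where neither was. Over pairs with a score in both maps, 41.9% of those at most 1 fragment apart were strong in both (36.5 to 47.6), 22.2% of those 2 fragments apart (15.2 to 31.4) and 29.7% of those 3 or more apart (20.5 to 40.9).

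The scores of the 2 borders of a pair were compared by rank. Scores of different maps have no common scale, so each was turned into its percentile among the autosomal borders of its own map, where a low percentile is a low score. The BG3 borders of fuzzy pairs had a median percentile of 46.1 (40.8 to 50.7) and their Kc167 partners one of 46.9 (40.7 to 51.5). Conserved borders stood lower in BG3, at 38.8 (36.0 to 41.8), and BG3-specific borders higher, at 61.6 (57.4 to 64.9). In Kc167 conserved borders stood at 43.0 (39.0 to 47.0) and Kc167-specific ones at 55.5 (53.2 to 58.6). The intervals of fuzzy and conserved borders overlap in both maps, in BG3 only narrowly. Within fuzzy pairs the BG3 percentile minus the Kc167 percentile had a median of -0.11 (-1.46 to 1.08) over 471 pairs with both scores, and 48.6% of the pairs (44.1 to 53.1) ranked within 10 points of each other. The corresponding share at conserved borders, 49.1% (44.9 to 53.3), was as large. Across pairs, the scores of BG3 and Kc167 had Pearson's r = 0.82 and Spearman's rho = 0.80 at fuzzy borders (471 pairs) and 0.81 and 0.78 at conserved ones (552 pairs). These are descriptions, since neighbouring borders share map and sequence.

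Of the pairs strong in both maps, the one with the lowest BG3 score lay by RpS21, a gene of the small ribosomal subunit, on 2L. Its BG3 border at 2857641 scored -0.515 and its Kc167 border at 2855813 scored -0.451, at percentiles of 0.45 in BG3 and 1.33 in Kc167. The 1828 bp between them, 1 fragment apart, held the starts of RpS21 and CG2991. The starts of RpS21 and CG3104 lay 257 and 35 bp from the Kc167 border, while the BG3 border was 477 bp from the start of CG2991. The following BG3 scores were at pairs with no gene start within 2 kb, at 3008253 on 2R (-0.494 in BG3, 0.0068 in Kc167), at 1831488 on 2R (-0.454 in BG3, -0.634 in Kc167) and at 486864 on chromosome 4 (-0.369 in BG3, -0.314 in Kc167). Among pairs with a gene start within 2 kb of either border, the next one lay on 2L by CG4291 and kraken, divergent genes whose starts were 682 and 720 bp from the BG3 border (score -0.365) and 125 and 163 bp from the Kc167 border (-0.261). The 4 that followed among pairs with such a start lay by Mpc1, a subunit of the mitochondrial pyruvate carrier (-0.336 in BG3, -0.161 in Kc167), Pax, the focal adhesion protein paxillin (-0.326, -0.287), eff, a ubiquitin-conjugating enzyme (-0.319, -0.304), and CG31523 (-0.259, -0.216). The Kc167 border by eff was 4 bp from its start and the BG3 border 974 bp, inside the gene. Each of the 6 pairs with a gene start was 1 fragment apart.

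A few pairs differed in rank by more than 50 points, 9 of the 471. Of these, 4 had no gene start within 2 kb, with BG3 borders at 10819441 on 3R (percentiles of 21.2 in BG3 and 96.8 in Kc167), at 23183314 on 3L (3.55 in BG3, 75.3 in Kc167), at 25195202 on 3L (83.0 in BG3, 13.3 in Kc167) and at 3008253 on 2R (0.50 in BG3, 55.6 in Kc167). The other 5 lay at genes. The Kc167 border by ftz-f1, a nuclear receptor of the ecdysone cascade, lay 353 bp from the gene start with a high score (percentile 94.0, score 0.459), while the BG3 border 1739 bp away inside the gene scored lower in its map (percentile 32.5, score -0.094), and both were strong. The borders by chrb, an inhibitor of TOR signalling that responds to low oxygen, likewise ranked lower in BG3, at percentiles of 16.7 in BG3 and 72.1 in Kc167. The order was opposite by PRAS40 (66.4 in BG3, 7.50 in Kc167), RpL23A (59.5 in BG3, 6.15 in Kc167) and Mfap1, a splicing factor (72.2 in BG3, 22.0 in Kc167). At RpL23A the gene start lay between the borders, 228 bp from the BG3 and 212 bp from the Kc167 position. At the heat shock gene Hsp83, whose start was 858 bp from the BG3 and 151 bp from the Kc167 border, the percentiles differed by less, at 21.2 in BG3 and 68.3 in Kc167.

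**Figure D3:**
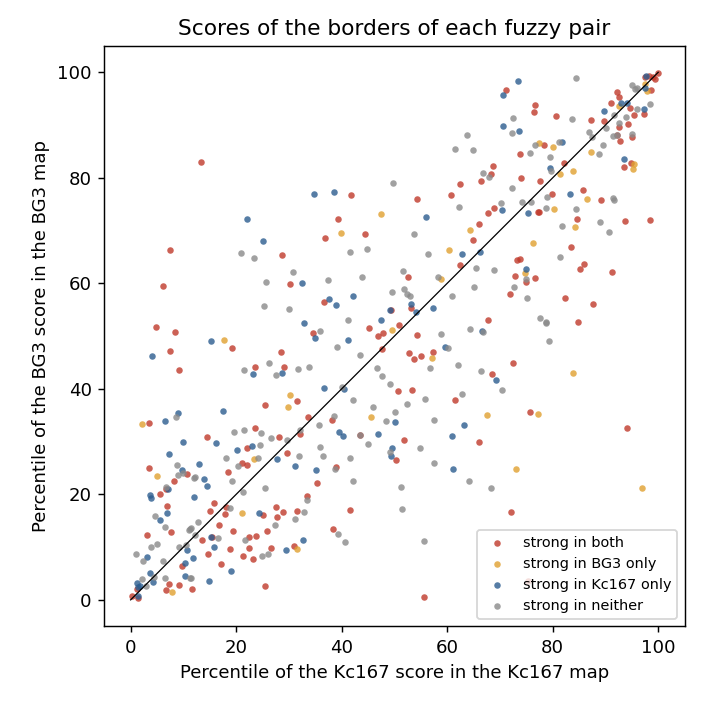
Percentile of the score of the BG3 border in the BG3 map (y axis) against that of its Kc167 partner in the Kc167 map (x axis), 1 point per fuzzy pair with both scores (n = 471), coloured by strength. The line marks equal percentiles. Of the 471 pairs, 229 lie within 10 points of the line and 9 over 50 points from it.

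Fuzzy borders lay at gene starts less often than conserved borders and more often than specific ones. A gene start was within 1 kb of 278 of the 474 fuzzy BG3 borders (58.6%, 54.2 to 63.0), 415 of 552 conserved borders (75.2%, 71.4 to 78.6) and 308 of 883 BG3-specific borders (34.9%, 31.8 to 38.1). Over all BG3 borders the share was 52.4%, and over the midpoints of all autosomal fragments of at least 150 bp it was 18.6%. The difference was -16.5 points against conserved borders (-22.2 to -10.8) and 23.8 points against BG3-specific ones (18.3 to 29.1). At the Kc167 positions of the pairs the share was 60.1% (55.7 to 64.4), beside 55.6% of all Kc167 borders and 43.3% of Kc167-specific ones, a difference from these of 16.8 points (11.4 to 22.1). The median distance to the nearest gene start was 733 bp (591 to 879) for the BG3 position and 646 bp (573 to 788) for the Kc167 position of fuzzy pairs, 328 bp (265 to 363) for conserved and 2566 bp (2158 to 3127) for BG3-specific borders. Since fragment width moved with the class, the shares were also taken within fragment widths, a split added after seeing the data. Fuzzy minus conserved was -14.1 points (-28.6 to 2.65) under 300 bp, -21.5 (-32.7 to -8.59) at 300 to under 600 bp, -14.7 (-24.1 to -5.42) at 600 to under 1200 bp and -18.0 (-30.1 to -5.66) at 1200 bp or more. Fuzzy minus BG3-specific was between 26.9 and 29.8 points in the 3 narrower classes and 7.22 points (-5.56 to 19.8) in the widest.

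**Figure D4:**
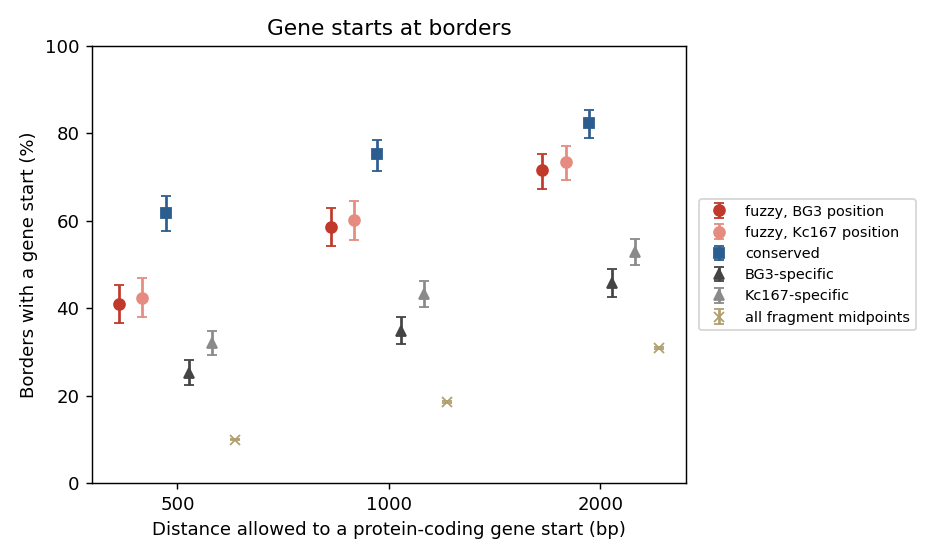
Percentage of borders (y axis) with a protein-coding gene start within 500, 1000 or 2000 bp (x axis), with 95% Wilson intervals, for fuzzy pairs at the BG3 and Kc167 positions, conserved, BG3-specific and Kc167-specific borders and all fragment midpoints. At each distance fuzzy borders stand below conserved and above specific ones (58.6% at BG3 positions, 75.2% conserved and 34.9% BG3-specific at 1000 bp).

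In 232 pairs (48.9%) a start lay within 1 kb of both borders, in 46 of the BG3 border only, in 53 of the Kc167 border only, and in 143 (30.2%) of neither. The score moved with this, since the median BG3 percentile was 34.8 (30.2 to 42.8) in pairs with a start within 1 kb of both borders and 69.4 (57.2 to 74.3) in pairs with none. The share strong in both maps did not differ beyond its interval, at 34.5% (28.7 to 40.8) and 38.3% (30.7 to 46.5) in the same order.

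Neither line had its borders clearly nearer to the gene start. Of the 356 pairs with a start within 2 kb of either border, the BG3 border was the nearer one in 162 (45.5%, 40.4 to 50.7) and the Kc167 border in 194. Along the direction of transcription, the BG3 borders had a median position 64.5 bp upstream of the start (interval between 126 bp upstream and 22 bp downstream) and the Kc167 borders one 20 bp upstream (105 bp upstream to 20 bp downstream). Within 200 bp of the start, taken as the one nearest to either border, lay 85 BG3 borders (23.9%, 19.7 to 28.6) and 105 Kc167 borders (29.5%, 25 to 34.4). Both borders were upstream in 112 pairs and both downstream in 86. In 82 pairs the BG3 border was upstream and the Kc167 border downstream, and in 76 the BG3 border was downstream and the Kc167 border upstream.

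**Figure D5:**
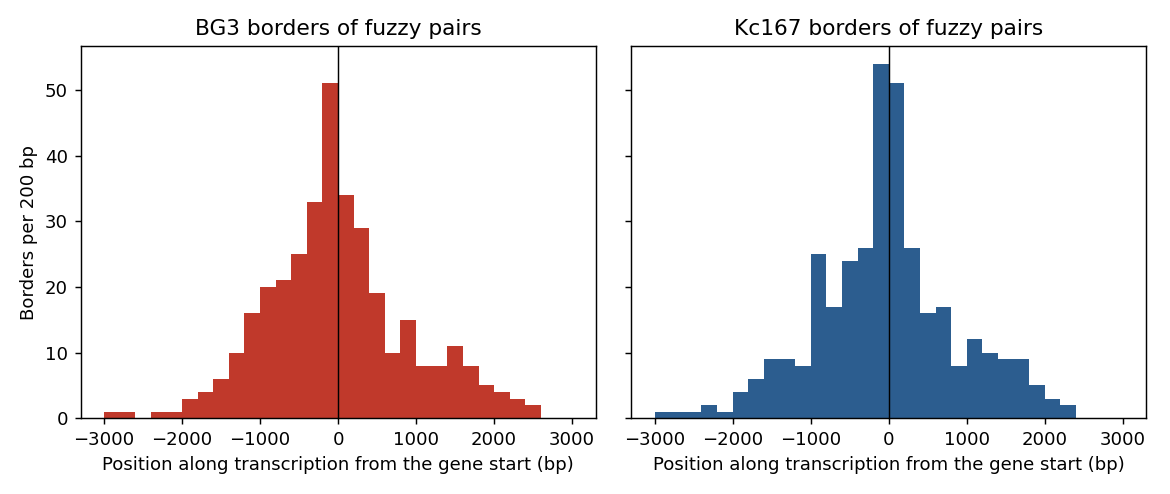
Positions of the BG3 borders (left) and Kc167 borders (right) of the 356 fuzzy pairs with a gene start within 2 kb, along the direction of transcription from that start (x axis, bp, negative is upstream), in borders per 200 bp (y axis). Of these, 85 BG3 and 105 Kc167 borders lie within 200 bp of the start. The start is the one nearest to either border, so a peak there follows in part from that choice.

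The shifted stretch itself held a gene start in 191 pairs (40.3%, 36.0 to 44.8), and in 35 of them 2 or more. A stretch of the same length on the other side of the BG3 border held one in 110 pairs (23.2%, 19.6 to 27.2), a difference of 17.1 points (11.2 to 22.8). Beyond the Kc167 border one was held in 137 pairs (28.9%, 25 to 33.1), a difference of 11.4 points (5.34 to 17.3). Both intervals treat the stretches as independent, although they belong to the same pairs. The shifted stretch has a called border at each end and the mirrored one at a single end, so they are not fully comparable. Pairs with a start between the borders had a median shift of 996 bp (910 to 1103) and those with none one of 850 bp (795 to 929). The sequences of pairs picked for a small shift around a start are printed to show how such a start lies between the borders. They are limited to the part outside annotated untranslated regions, which ends at the start of the gene.
chr3L:3326045-3326264 (Gtpx, BG3 border 3326054, Kc167 border 3326285): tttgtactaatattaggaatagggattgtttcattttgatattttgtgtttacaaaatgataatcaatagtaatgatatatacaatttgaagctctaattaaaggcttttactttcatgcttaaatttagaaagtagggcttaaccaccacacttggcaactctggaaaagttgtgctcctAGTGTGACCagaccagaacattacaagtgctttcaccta
chr2L:12974188-12974321 (Vha68-2, BG3 border 12974448, Kc167 border 12974197): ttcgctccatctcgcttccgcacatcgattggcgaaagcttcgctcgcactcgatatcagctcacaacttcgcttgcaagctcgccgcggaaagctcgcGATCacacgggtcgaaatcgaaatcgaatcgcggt
The start of Gtpx, a glutathione peroxidase gene on the plus strand, was 211 bp from the BG3 and 20 bp from the Kc167 border, and its upstream sequence holds an M1BP motif on the minus strand at 3326226 to 3326234. The start of Vha68-2, a subunit of the vacuolar proton pump, lay almost midway, 126 bp from the BG3 and 125 bp from the Kc167 border.

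Among pairs with a start between the borders, the lowest BG3 score after that by RpS21 was at mRpS23, a mitochondrial ribosomal protein gene on 2L, with scores of -0.452 in BG3 and -0.446 in Kc167. Its start was 110 bp from the BG3 and 772 bp from the Kc167 border. At kuk on 3R, a gene of the nuclear envelope, the start lay 407 bp from the BG3 border (-0.343) and 264 bp from the Kc167 border (-0.448), with Keap1, the sensor of oxidative stress, 706 and 35 bp away. At eIF4A on 2L, which encodes the RNA helicase of translation initiation, the distances were 384 bp to the BG3 border (-0.341) and 307 bp to the Kc167 border (-0.422). These pairs were strong in Kc167 only.

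By annotation, 35.7% of the fuzzy BG3 positions were intergenic (31.5 to 40.1), 31.6% intronic (27.6 to 36.0), 13.9% in coding exons (11.1 to 17.3), 10.3% in 5' untranslated regions (7.91 to 13.4) and 6.96% in 3' ones (5.00 to 9.62). Over the midpoints of all autosomal fragments of at least 150 bp, 29.9% were intergenic, 39.0% intronic and 21.4% in coding exons. Of these midpoints, 2.84% were in 5' untranslated regions and 5.11% in 3' ones. Conserved borders were less often in coding exons than fuzzy ones (6.88%, 5.06 to 9.31) and more often intergenic (45.8%, 253 of 552) or in 5' untranslated regions (18.7%, 15.6 to 22.1). BG3-specific borders were 39.1% intergenic, 35.8% intronic and 10.2% in coding exons. Both borders of a fuzzy pair lay inside the same gene in 163 pairs and in the same gap between genes in 94. Of the BG3 positions in a gap, 43.7% lay between divergent genes (76 of 174, 36.5 to 51.1), against 53.4% of conserved ones (142 of 266, 47.4 to 59.3) and 33.8% of BG3-specific ones (121 of 358, 29.1 to 38.8). Convergent genes flanked 9.20% of these fuzzy positions.

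The strands of the nearby genes pointed away from fuzzy borders. Within 1 kb to the left of the BG3 position, 58.8% of the starts were on the minus strand (120 of 204), and to the right 37.5% were (72 of 192), a difference of 21.3 points (11.5 to 30.6). At the Kc167 positions the difference was 22.2 points (12.6 to 31.3), at conserved borders 37.1 points (29.4 to 44.2) and at BG3-specific ones 30.7 points (21.3 to 39.2). The interval of the fuzzy BG3 positions overlaps the others, only narrowly for conserved borders. Such overlap does not show that the classes are alike, and the differences between classes were not tested.

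Motifs of the border factors were searched on both strands within 500 bp to each side. The M1BP motif GGTCACACT was present at 33 fuzzy BG3 borders (6.96%, 5.00 to 9.62), 11.6% of conserved and 3.85% of BG3-specific borders, and in 0.966% of all windows of that length on the autosomes. The DRE motif TATCGATA, bound by Dref, was at 52 fuzzy borders (11.0%, 8.46 to 14.1), 17.6% of conserved and 6.46% of BG3-specific borders, and in 2.64% of all windows. For M1BP fuzzy minus conserved was -4.63 points (-8.17 to -1.05) and fuzzy minus BG3-specific 3.11 points (0.65 to 5.98), and for DRE -6.60 (-10.8 to -2.30) and 4.52 points (1.42 to 7.96). Among borders with a gene start within 1 kb, the interval of each of these differences held 0. More than 1 copy of CGATA was present at 50.2% of fuzzy borders (45.7 to 54.7), 53.3% of conserved, 40.3% of BG3-specific ones and 35.4% of all windows. A single DRE reads CGATA on each strand and passes as more than 1 copy, so these shares include every window with a DRE. GAGAGAG, a run bound by GAGA factor, was at 16.0% of fuzzy (13 to 19.6), 83 of 552 conserved and 133 of 883 BG3-specific borders, with 10.8% of all windows. In the pairs with a motif within 500 bp of either border, the BG3 border was the nearer one to DRE in 35 pairs and the Kc167 border in 54 (39.3% for BG3, 29.8 to 49.7), and to M1BP in 22 and 31 pairs (41.5%, 29.3 to 54.9). For GAGAGAG the order was opposite, with the BG3 border nearer in 63 pairs and the Kc167 border in 52 (54.8%, 45.7 to 63.6).

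Loop anchors, from the separate loop calls at 2 kb, were found at few fuzzy borders. An anchor extended by 1 kb held 41 fuzzy borders in BG3 (8.65%, 6.44 to 11.5), beside 7.07% of all BG3 borders, and 56 of their partners in Kc167 (11.8%, 9.21 to 15), beside 9.04% of all Kc167 borders. The differences were 2.31 points against conserved (-0.92 to 5.67) and 1.97 against specific borders (-0.91 to 5.20) in BG3, and 3.12 (-0.59 to 6.95) and 3.84 points (0.68 to 7.38) in Kc167. An anchor lay at both borders in 13 pairs, and in 9 of these a BG3 and a Kc167 loop had both anchors within 10 kb of each other. A pair on 2L at 20293578 in BG3 and 20294071 in Kc167, near CG12617, was strong in both maps and anchored a loop in each, to a stretch at 20258001 to 20262000 that carries a fuzzy pair too. These loops spanned 34 kb in the BG3 map and 32 kb in the Kc167 map. The BG3 loop had 32 observed contacts against 3.13 expected, and the Kc167 loop 54 against 6.32. Kc167 had more filtered reads per the study's methods, so observed contacts are to be read beside the expected ones of their own map. By Cdk2, a cell cycle kinase gene on 3R, the borders were 222 bp apart, and a loop ended there in both maps, over 18 kb in BG3 (69 contacts observed, 32.2 expected) and over 22 kb in Kc167 (153 observed, 64.2 expected). The pair at 10819441 on 3R in BG3 and 10820368 in Kc167 shared a loop of 26 kb, with 20 contacts in BG3 against 5.11 expected and 97 in Kc167 against 16.5. Its score percentiles lay far apart, at 21.2 in BG3 and 96.8 in Kc167, and no gene start was within 2 kb.

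The starts of 677 of the 11749 autosomal protein-coding genes (5.76%) lay within 2 kb of a fuzzy pair. Genes of basic cell function were among them, with 8 of 74 cytoplasmic ribosomal proteins (10.8%, 5.58 to 19.9), 9 of 62 mitochondrial ribosomal proteins (14.5%, 7.83 to 25.3) and 2 of 42 proteasome subunits (4.76%, 1.32 to 15.8). The start of RpS3, a protein of the small ribosomal subunit, was 23 bp from the BG3 and 618 bp from the Kc167 border, and that of RpL36A was 353 bp from the BG3 and 67 bp from the Kc167 border. mRpS6 had its BG3 border at 864 bp and its Kc167 border at 104 bp, and mRpL12 had them at 110 and 1496 bp. For these genes either line could have the nearer border.

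Of 36 axon guidance and adhesion genes, 4 were near a fuzzy pair (11.1%, 4.41 to 25.3), beside 5.76% of all autosomal protein-coding genes. They were shg, which encodes E-cadherin (504 bp from the BG3 and 114 bp from the Kc167 border), dnt, a Ryk-type receptor (389 and 875 bp), Dscam1, the neuronal recognition receptor (1337 and 494 bp), and Eph, the ephrin receptor on chromosome 4 (614 and 1338 bp). Of 33 neuroblast and neural fate genes, 2 were near one (6.06%, 1.68 to 19.6), a share close to that of all genes. They were klu, a zinc finger protein of neuroblasts, and insc, which orients their divisions. Of 22 blood cell genes, 2 were near one (9.09%, 2.53 to 27.8). These were Pvr, the PDGF and VEGF receptor homologue (218 bp from the BG3 and 509 bp from the Kc167 border), and Hml, the hemocyte clotting protein (934 and 1825 bp). None of the 27 dpr and DIP surface protein genes and none of the 55 developmental transcription factors listed was near a fuzzy pair (0%, with upper bounds of 12.5% and 6.53%), nor were more than 3 of 154 odorant, taste and ionotropic receptor genes (1.95%, 0.66 to 5.57) and 1 of 91 cuticle protein genes (1.10%, 0.19 to 5.96).

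Of 19 ecdysone response genes, 4 were near a fuzzy pair (21.1%, 8.51 to 43.3), beside 5.76% of all autosomal protein-coding genes. Besides ftz-f1, these were Eip63E, a cyclin-dependent kinase gene (163 bp from the BG3 and 1087 bp from the Kc167 border), Hr83, a nuclear receptor gene (2012 and 815 bp), and Eip74EF, an ETS transcription factor gene (1658 and 2789 bp). Of 23 genes of architectural proteins, 3 were near one: pzg, a partner of Dref (1114 bp from the BG3 and 270 bp from the Kc167 border), pita, a zinc finger insulator protein (607 and 333 bp), and vtd, the Rad21 subunit of cohesin (700 and 1190 bp). These lists are small, their intervals wide, and no list was tested against the rest of the genes.

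The stretch of 2L that the study drew as an example held 2 fuzzy pairs. One spanned the starts of eRF3, a translation release factor, and SC35, a splicing factor, whose 5' ends overlap on opposite strands, with eRF3 241 bp from the BG3 and 361 bp from the Kc167 border and SC35 454 and 148 bp away. Its scores of -0.104 in BG3 and -0.141 in Kc167 stood at percentiles of 30.2 and 29.6. The other, 848 bp wide, lay in the 3' untranslated region of bun, a leucine zipper gene of the TSC-22 family, with no gene start within 2 kb. It was strong in both maps, at percentiles of 26.5 in BG3 and 50.4 in Kc167. Each was 1 fragment apart.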

How the data were processed

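The authors processed Hi-C libraries from 2 replicates of each line. Tools named in the submitters' processing notes are BWA 0.7.15-r1140 and Juicer 1.7.6, with the dm6 build. Per the study's methods, HiCExplorer called TADs on matrices binned at DpnII sites, with a permissive and a stringent threshold, and HiCCUPS called loops. The deposited TAD lists give positions and a TAD separation score, taken from the TAD that starts at the border. The deposited loop lists give observed contact counts and an expected signal from the donut neighbourhood, and their q-values were not used. Replicates are merged in all lists, whose read depth is not in them. The study's methods report more filtered reads for each Kc167 replicate than for either BG3 replicate. Depth was not matched here, so line and depth cannot be told apart where calls or contacts of the maps differ.

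Borders, shifts, fragments and gene positions were computed with Python 3.11.15, NumPy 2.4.6 and SciPy 1.17.1, plots with Matplotlib 3.10.9, on the dm6 assembly and Ensembl annotation 115. Borders fell inside the reference chromosomes. No test was made, and functions were tested on simulated data. Named pairs are the smallest and largest shifts, the lowest BG3 scores and largest rank differences among pairs with a gene start within 2 kb, pairs at loops, list members and pairs of the 2L region. The osp and bru1 sequences, and the pairs without a gene start named for score or rank, were chosen after their values were seen. Members, gene lists and rules were chosen with earlier results of these data known. Alternatives varied limits, lists, distances, gene sets and windows.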

Additional observations from a re-analysis of the deposited data

How the results depend on the processing

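No paired analysis was possible because the replicates are merged in the lists, and for the same reason no replicate could be left out. The limits decide the count and size. With an upper limit of 1 kb there were 262 fuzzy borders, a median shift of 625.5 bp, 85.1% at most 1 fragment apart and 65.3% with a gene start. With 5 kb these were 701 borders, 1326 bp, 43.9% and 54.1%, and 44.9% of pairs held a start between them. With a lower limit of 500 bp the median was 1072 bp and 54.8% were at most 1 fragment apart. The stringent lists gave 171 pairs, 73.1% of them at most 1 fragment apart, and by construction no share of strong borders. The share with a gene start was 40.9% within 500 bp, 71.5% within 2 kb and 64.1% over transcript starts, which also put a start between 46.6% of pairs. Fuzzy borders stayed below conserved and above BG3-specific ones in each of these settings.

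A result passed the threshold if its interval left out 0, or an even split for a share between lines or sides. Only results past it could count as reversed. Other changes of sign were not counted, as for the GAGAGAG differences with 250 bp windows and the score difference with the 1 kb limit. Of 141 alternative values, 0 reversed, 10 fell short of the threshold, 2 newly passed it and 16 moved. Among the others, the number of fuzzy borders was 383 with a lower limit of 500 bp and 576 with X included, and the restriction to mutual nearest borders could change nothing, since every pair was mutual. For M1BP, fuzzy minus BG3-specific was 1.09 points (-0.74 to 3.34) with 250 bp windows and 2.06 (-2.85 to 7.10) at gene starts, and fuzzy minus conserved was -3.91 (-7.96 to 0.21) with 1 kb windows and -4.27 (-9.22 to 1.02) at gene starts. For DRE at gene starts, these differences were 3.27 (-2.55 to 9.19) and -4.78 (-10.6 to 1.32). For CGATA, fuzzy minus conserved was -6.12 (-11.6 to -0.53) with 250 bp windows, and fuzzy minus BG3-specific was 6.36 (-1.69 to 14.3) at gene starts. At loop anchors, fuzzy minus specific was 1.53 points (-0.51 to 4.03) in Kc167 with unextended anchors and 5.48 (0.95 to 10.2) in BG3 with anchors extended by 5 kb. In the split by fragment width, added after seeing the data, fuzzy minus conserved was -14.1 points (-28.6 to 2.65) in the narrowest class and fuzzy minus BG3-specific 7.22 (-5.56 to 19.8) in the widest. The cause was not tested.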

Other observations

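On the X chromosome, which was left out of the counts above, 102 of 346 BG3 borders were fuzzy (29.5%, 95% interval 24.9 to 34.5), with a median shift of 985.5 bp (878 to 1105). The BG3 border lay at the higher coordinate in 49 of them (48.0%, 38.6 to 57.6), and 65 pairs were at most 1 fragment apart (63.7%, 54.1 to 72.4). There, 34 BG3 borders (33.3%, 24.9 to 42.9) and 63 Kc167 borders (61.8%, 52.1 to 70.6) of the pairs were strong. The share of strong borders over all X borders of each map was not computed, so these values cannot be called particular to fuzzy borders. A gene start lay within 1 kb of 57.8% of the fuzzy borders (48.1 to 67.0), 76.4% of the conserved (65.4 to 84.7) and 28.5% of the BG3-specific borders of X (22.3 to 35.6). BG3 is a male and Kc167 a female line, so cell line and number of X chromosomes cannot be told apart.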
